A study of Homo sapiens with 12 samples.

Results

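The mRNAs of LIN28B, the 3 IGF2BP genes and the 2 HMGA genes were followed in HEK293T, an established human line derived from embryonic kidney and transformed with adenovirus genes and SV40 large T antigen. The 6 genes were taken by symbol from the 23615 gene rows of the series, and each symbol had 1 row. They were chosen as a functional group, the let-7 network, at a time when earlier results of these data were known. Poly(A) RNA was sequenced from 4 groups of 3 libraries: CP25 with 2 h of transcription block, vehicle with 2 h, CP25 with 0 h and vehicle with 0 h. Every culture had been incubated for 18 h with 2 μM CP25, described in the labels as a macrocyclic inhibitor of the mRNA decapping enzyme Dcp2, or with an equal volume of vehicle, the storage buffer of the peptide, before 5 μg/mL actinomycin D stopped transcription. The replicate libraries are numbered 1 to 3, and nothing states that they came from separate cultures, so p-values here reflect library-to-library spread, part or all of which may be technical.

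LIN28B is an RNA-binding protein that holds back the maturation of let-7 microRNAs. IGF2BP1, IGF2BP2 and IGF2BP3 are related RNA-binding proteins that attach to mRNAs in the cytoplasm and affect their stability, transport and translation. HMGA1 and HMGA2 are small chromatin proteins that bind the minor groove of AT-rich DNA through AT hooks. These genes are abundant in embryonic tissue, most of them are low or silent in adult tissue, and they are expressed again in many tumours. Let-7 microRNAs, which accumulate as cells differentiate, pair with sites in the 3′ UTRs of such mRNAs and lower their expression, and LIN28B and let-7 repress each other. Dcp2 removes the 5′ cap of mRNAs, a step that exposes them to decay from that end.

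The let-7 family is shown first because its seed, bases 2 to 8 of the mature microRNA, defines the sites that were searched. Of the RefSeq human mature microRNAs (GRCh38.p14), 11 names carried the seed GAGGUAG, and 9 of these were let-7 or miR-98 names, encoded at 12 loci. The capitals below mark the seed, which is shared, while the rest of the molecule varies.
let-7a-5p: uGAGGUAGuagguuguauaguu
let-7d-5p: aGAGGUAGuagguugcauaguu
miR-98-5p: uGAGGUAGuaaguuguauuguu

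The search took 3 kinds of match on the sense strand of 1 GENCODE 29 transcript per gene: CTACCTC (7mer-m8), TACCTCA (7mer-A1) and CTACCTCA (8mer, which contains both and was counted once). Each of the 6 genes held at least 1 match in its 3′ UTR, against 16.6% of the 10757 genes that had a mean of at least 1 FPKM and an annotated 3′ UTR. The 6 were chosen as the let-7 network, so this contrast is a description and not a test. Of 23 other reported let-7 targets among the 10757 genes, 18 held a match. Shown here is 1 site per gene, the 8mer nearest the stop codon or else the nearest match, in GRCh38 coordinates, with the match in capitals.
LIN28B, chr6:105078813-105078834, plus strand: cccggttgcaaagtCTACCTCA
IGF2BP1, chr17:49051062-49051083, plus strand: gtgtgcgaagtaaaCTACCTCA
IGF2BP2, chr3:185644220-185644241, minus strand: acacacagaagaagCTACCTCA
IGF2BP3, chr7:23311795-23311816, minus strand: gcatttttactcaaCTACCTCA
HMGA1, chr6:34245830-34245851, plus strand: cctctgttcacaaaCTACCTCt
HMGA2, chr12:65963299-65963320, plus strand: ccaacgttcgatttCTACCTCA

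HMGA2 carried 7 matches in a 3′ UTR of 3003 nucleotides, of which 1 was an 8mer. Among the 1633 genes whose 3′ UTR length lay within 25% of that length, 25.4% had at least 1 match and 0.0612% had as many as HMGA2, which is HMGA2 alone, since each gene is counted in its own set. LIN28B carried 5 matches in 4549 nucleotides, a number reached by 0.180% of the 1109 genes of like length. IGF2BP1 also carried 5, of which 3 were 8mers, in the longest of these 3′ UTRs, at 6206 nucleotides, and 0.610% of the 656 genes of like length had as many. The other 3 genes held fewer: IGF2BP2 had 2 matches in 1792 nucleotides, IGF2BP3 had 1 in 2153 nucleotides and HMGA1 had 1 in 1346 nucleotides. For IGF2BP3 and HMGA1 a single match was not unusual, since 20.4% and 14.0% of genes of like length had one. A match is a run of letters in an annotated transcript, and whether let-7 binds there in these cells was not measured.

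**Figure D1:**
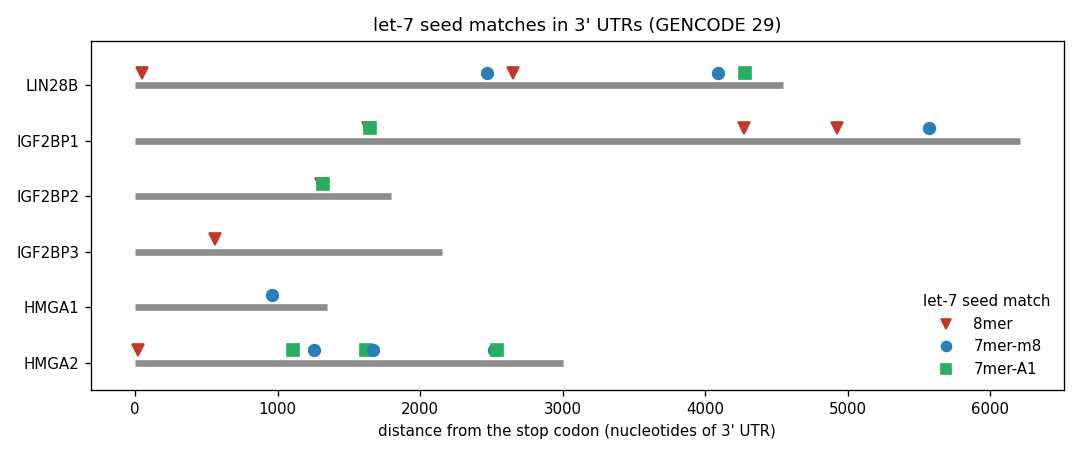
Positions of let-7 seed matches along the 3′ UTR of each gene, in nucleotides from the stop codon (grey bars span the annotated 3′ UTR; triangles are 8mers, circles 7mer-m8 and squares 7mer-A1). HMGA2 holds 7 matches and LIN28B and IGF2BP1 hold 5 each, while IGF2BP3 and HMGA1 hold 1 each.

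All 6 mRNAs were well expressed in every library. Levels are FPKM, fragments scaled to transcript length and library size, so they can be compared between genes. Each 2 h library held an estimated 22.3 to 30.0 × 10⁶ fragments and each 0 h library 13.4 to 22.6 × 10⁶, which put 1511 to 14561 fragments behind each of the 6 genes in a library. At the lowest of these numbers, counting error is 2.57% of the value, and it covers counting only. Most markers listed for the line were present. VIM averaged 241 ± 39.1 FPKM with CP25 and 239 ± 31.7 with vehicle at 2 h, and KRT18 averaged 37.7 ± 4.92 FPKM with CP25 and 38.4 ± 3.66 with vehicle (SD, n = 3 each). At 2 h PAX2 averaged 0.931 FPKM with CP25 and 0.883 with vehicle, and LHX1 averaged 0.900 FPKM with CP25 and 0.860 with vehicle. Over the 12 libraries, 8 of 10 line markers reached a mean of 1 FPKM. PAX8 did not, at no more than 0.00959 FPKM, nor did CDH1, at no more than 0.704 FPKM. None of 6 haematopoietic and none of 5 pluripotency markers did, and of 6 endothelial and fibroblast markers COL1A1 alone did, at 2.55 to 3.83 FPKM per library. In bulk RNA, fewer cells expressing a gene and less RNA per cell cannot be told apart.

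HMGA1 was the most abundant of the 6. It had 168, 142 and 195 FPKM with CP25 at 2 h and 160, 145 and 183 FPKM with vehicle at 2 h. At 0 h it had 139, 185 and 172 FPKM with CP25 and 130, 183 and 177 FPKM with vehicle. The groups overlapped throughout, and replicate 1 was the lowest library in both 0 h groups.

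HMGA2, its paralogue, had 59.7, 51.8 and 62.0 FPKM with CP25 at 2 h and 56.3, 53.9 and 52.8 FPKM with vehicle at 2 h. At 0 h it had 42.0, 50.1 and 48.7 FPKM with CP25 and 38.7, 51.2 and 45.8 FPKM with vehicle. The 2 h libraries all lay above the 0 h libraries, within each treatment, while CP25 and vehicle overlapped at both times. RPSAP52, an antisense transcript at the HMGA2 locus, was listed at no more than 0.0333 FPKM in any library, and HMGA1P7, an HMGA1 pseudogene, was listed at 0 in all 12.

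LIN28B had 44.1, 51.9 and 53.4 FPKM with CP25 at 2 h and 43.8, 53.1 and 43.4 FPKM with vehicle at 2 h. At 0 h it had 44.2, 49.8 and 50.6 FPKM with CP25 and 43.3, 51.4 and 50.3 FPKM with vehicle. All 4 groups overlapped, and the vehicle 2 h group differed in having 1 high and 2 low libraries. LIN28A, the paralogue that blocks let-7 maturation in embryonic stem cells, was at no more than 0.0347 FPKM in any library, so nearly all LIN28 mRNA measured was LIN28B.

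IGF2BP1 had 50.5, 57.6 and 54.0 FPKM with CP25 at 2 h and 49.4, 58.7 and 54.3 FPKM with vehicle at 2 h. At 0 h it had 58.7, 65.4 and 64.6 FPKM with CP25 and 61.1, 67.2 and 67.3 FPKM with vehicle. Within each treatment every 2 h library lay below every 0 h library, and at neither time did the treatments separate.

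IGF2BP2 had 29.5, 26.4 and 31.7 FPKM with CP25 at 2 h and 30.5, 28.4 and 29.5 FPKM with vehicle at 2 h. At 0 h it had 29.8, 30.0 and 29.8 FPKM with CP25 and 30.7, 31.3 and 29.7 FPKM with vehicle. Every group overlapped every other.

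IGF2BP3 had 39.4, 35.7 and 38.3 FPKM with CP25 at 2 h and 37.4, 37.2 and 34.5 FPKM with vehicle at 2 h. At 0 h it had 27.9, 34.3 and 30.3 FPKM with CP25 and 27.7, 34.6 and 30.2 FPKM with vehicle. The CP25 libraries at 2 h lay above those at 0 h, and in vehicle a single pair of libraries overlapped, at 34.5 FPKM at 2 h and 34.6 at 0 h.

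**Figure D2:**
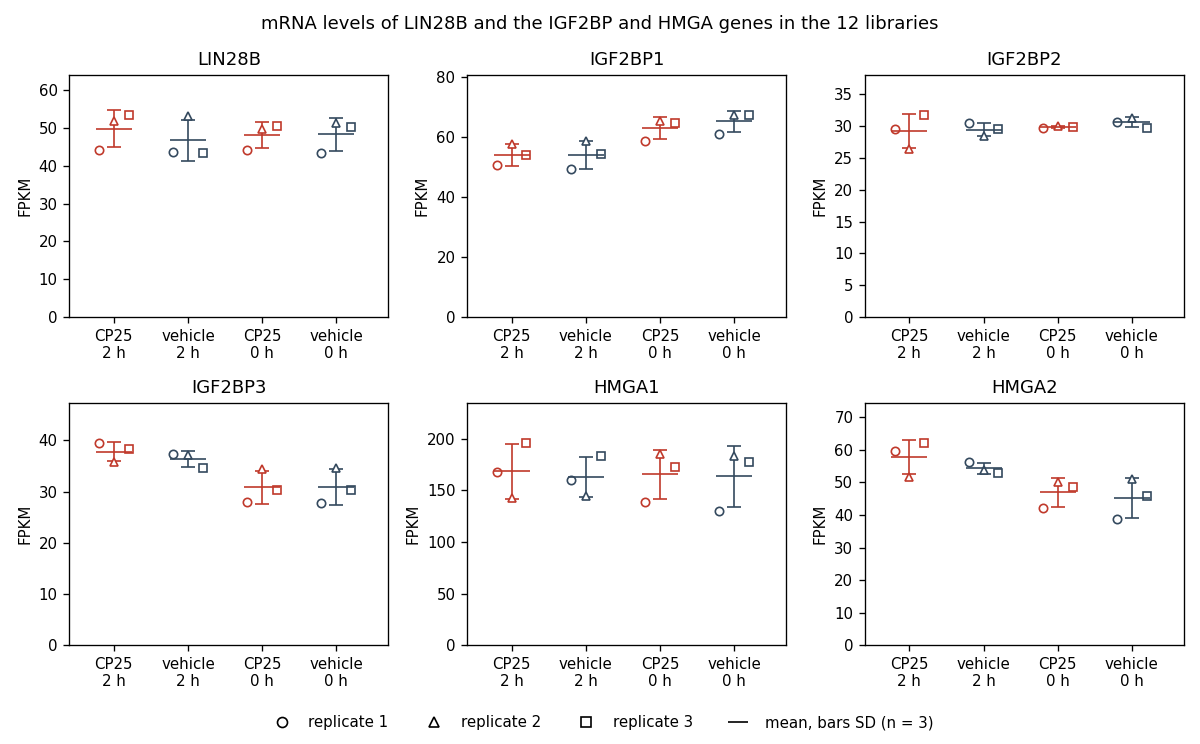
FPKM of the 6 genes in each library (y axis from 0), with CP25 in red and vehicle in dark blue, markers for the replicate number, and a bar at the mean with its SD (n = 3). CP25 and vehicle overlap at both times in every panel, HMGA2 is higher at 2 h than at 0 h, and IGF2BP1 is lower at 2 h than at 0 h.

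Some libraries were low or high for most of these genes. With CP25 at 0 h, replicate 1 held the lowest value of all 6 genes, and with vehicle at 0 h it held the lowest of 5, all but IGF2BP2. Replicate 1 also had the lowest total in both 0 h groups, at 451136 FPKM with CP25 and 442719 FPKM with vehicle. Its median expressed gene was nevertheless the highest of each 0 h group, at 13.0 FPKM in both. The other 0 h libraries lay at 12.6 and 12.7 FPKM with CP25 and at 12.7 and 12.9 FPKM with vehicle. How many of all genes were lowest in replicate 1 was not counted. With CP25 at 2 h, replicate 3 held the highest value of 4 genes, LIN28B, IGF2BP2, HMGA1 and HMGA2. That library also had the largest total, at 600826 FPKM, with 1 gene row at 75785 FPKM, while its median expressed gene, at 10.1 FPKM, was like those of the other 2 h libraries, at 9.82 to 10.1 FPKM. Without CP25 replicate 3, the log2 change of CP25 against vehicle at 2 h came to 0.04 for LIN28B and to -0.07 for HMGA1, against 0.09 for LIN28B and 0.04 for HMGA1 with all libraries. Without CP25 replicate 1, that of HMGA1 at 0 h came to 0.14, against 0.02 with all libraries, and without vehicle replicate 1 it came to -0.14.

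In order of level at 0 h, HMGA1 came first, IGF2BP1 followed, and LIN28B, HMGA2, IGF2BP3 and IGF2BP2 came after, in both treatments. HMGA1 averaged 2.63 times IGF2BP1 with CP25 and 2.51 times with vehicle, and no library overlapped. LIN28B and HMGA2 did not differ beyond their spread, nor did IGF2BP3 and IGF2BP2. At 2 h the order was HMGA1, HMGA2, IGF2BP1, LIN28B, IGF2BP3 and IGF2BP2 in both treatments, with the middle 3 overlapping in neighbouring pairs and IGF2BP3 now clear of IGF2BP2.

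CP25 was compared with vehicle in each of the 2 time points, which asks whether the inhibitor altered the level of these mRNAs, and between times, which asks whether it altered their loss after transcription stopped. None of the 6 genes passed the limma threshold (adjusted p below 0.05) at 2 h, where 1 of 11745 genes did (0.00851%), or at 0 h, where 0 of 12365 did (0%). The 1 gene was SNORD76, a small nucleolar RNA that was lower with CP25, named here because it was the sole call. At an unadjusted p below 0.05 there were 87 genes at 2 h and 88 at 0 h, and none of the 6 was among them. None of the 6 had CP25 libraries clear of the vehicle libraries. Over all genes, libraries did not overlap at 2 h for 2.47% with CP25 higher and 1.75% with CP25 lower, and at 0 h for 1.23% with CP25 higher and 2.85% with CP25 lower.

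The largest log2 change of the 6 at 2 h was that of LIN28B, at 0.09 with a 95% interval of -0.16 to 0.34 (limma adjusted p = 1.00). It came with 49.8 ± 4.96 FPKM with CP25 and 46.7 ± 5.47 FPKM with vehicle (SD, n = 3 each), and replicate 3 alone differed by more than 2 FPKM, at 9.96 FPKM higher with CP25. Leaving out 1 library moved the LIN28B change to between 0.04, without CP25 replicate 3, and 0.18, without vehicle replicate 2. HMGA2 followed at 0.08 (-0.10 to 0.27), with 57.8 ± 5.32 FPKM with CP25 and 54.3 ± 1.78 FPKM with vehicle, and ran between 0.03, without CP25 replicate 3, and 0.16, without CP25 replicate 2. IGF2BP3 changed by 0.05 (-0.11 to 0.21) on the log2 scale, HMGA1 by 0.04 (-0.26 to 0.35), IGF2BP2 by -0.02 (-0.21 to 0.17) and IGF2BP1 by -0.0013 (-0.20 to 0.20). These intervals came from the fit without a block. With the replicate number as a block they were -0.07 to 0.25 for LIN28B and -0.06 to 0.15 for HMGA1. Every interval of the 6 spanned 0 in both fits, so neither a small increase nor a small decrease of any of these mRNAs could be told from the spread.

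At 0 h the log2 changes lay between -0.05 for IGF2BP1 (-0.22 to 0.11) and 0.06 for HMGA2 (-0.21 to 0.32). IGF2BP1 averaged 62.9 ± 3.61 FPKM with CP25 and 65.2 ± 3.54 FPKM with vehicle (SD, n = 3 each), a difference smaller than either SD. HMGA1 had the widest interval, -0.36 to 0.40 around 0.02, and IGF2BP2 the narrowest, -0.15 to 0.08 around -0.03. LIN28B, at -0.0023 (-0.21 to 0.20), and IGF2BP3, at 0.0028 (-0.24 to 0.25), were near 0. In the authors' deposited table the p-values of the 6 genes ran between 0.410 and 0.978 at 2 h and between 0.631 and 0.985 at 0 h.

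The difference of the CP25 effects, 2 h minus 0 h, was called for 0 of 12183 genes by limma (0%), with 153 at an unadjusted p below 0.05. It ran between 0.02 for IGF2BP2 and 0.09 for LIN28B on the log2 scale, positive for all 6, against a median of 0.01 over all genes. The share of all genes with a positive difference was not counted, and the 6 were read in the same libraries. With libraries centred on their median, IGF2BP2 came to -0.00020. For LIN28B the interval was -0.23 to 0.41, a fold of 1.07 between 0.855 and 1.33, and the estimate ran between 0.03, without CP25 replicate 1 at 0 h, and 0.19, without vehicle replicate 2 at 2 h. For HMGA2 it was 0.03 (-0.29 to 0.35), for IGF2BP1 0.05 (-0.20 to 0.30) and for IGF2BP3 0.05 (-0.23 to 0.33). HMGA1 was the least precise in this fit, with a fold of 1.02 between 0.721 and 1.43. With the replicate number as a block, its log2 interval was -0.11 to 0.15. LIN28B then had the widest of the 6, at -0.10 to 0.29, and both spanned 0. Whether equal numbers pair the libraries was not established at 0 h. An effect of CP25 on the loss of these mRNAs smaller than the intervals without a block was not detectable by that fit with 3 libraries a group.

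**Figure D3:**
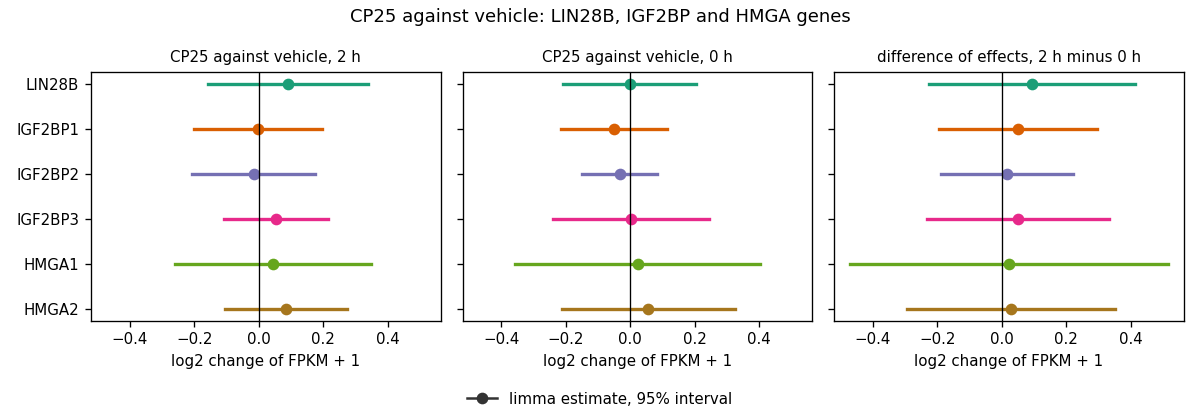
log2 change of FPKM + 1 for CP25 against vehicle at 2 h (left), at 0 h (middle) and the difference of the effects, 2 h minus 0 h (right); points are limma estimates and lines their 95% intervals. All 18 intervals cross 0, and HMGA1 has the widest in each panel.

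Over 2 h without transcription the 6 mRNAs kept most of their level or stood above it. The tables of 2 h and 0 h may have been scaled separately and FPKM is a share of the RNA present, so the comparison of times is descriptive and was given no test. The median log2 ratio of FPKM + 1, 2 h over 0 h, was -0.16 with CP25 and -0.18 with vehicle. As a percent of the 0 h level, this median gene stood at 89.5% with CP25 and at 88.5% with vehicle. The percents given for single genes are ratios of mean FPKM without the added 1, so they are not strictly on the scale of the median gene. The added 1 draws the ratios of weakly expressed genes toward no change. Of 12183 genes, 880 with CP25 and 885 with vehicle lay below a log2 ratio of -1, and none of the 6 did. MYC, a short-lived mRNA that both let-7 and the IGF2BPs are reported to act on, was at 10.0% with CP25 and 9.83% with vehicle.

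HMGA2 stood highest, at 123 ± 16.0% of its 0 h mean with CP25 and at 120 ± 17.1% with vehicle (propagated SD, n = 3 each). Its ratio exceeded that of 91.3% of genes with CP25 and of 89.7% with vehicle. IGF2BP3 was close to it, at 122 ± 14.2% with CP25 and 118 ± 14.3% with vehicle. With 2 h libraries wholly above 0 h libraries, HMGA2 belonged to the 15.5% of genes with CP25 and the 15.0% with vehicle for which that held, and IGF2BP3 belonged to them with CP25, while with vehicle 1 pair of its libraries overlapped.

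LIN28B stood at 103 ± 12.7% with CP25 and 96.7 ± 14.3% with vehicle, HMGA1 at 102 ± 21.7% with CP25 and 99.4 ± 21.5% with vehicle, and IGF2BP2 at 97.7 ± 8.96% with CP25 and 96.3 ± 4.20% with vehicle. The libraries of the times overlapped for these 3 genes. The median FPKM of a library was lower at 2 h, so dividing each library by it moved the log2 ratios up by about 0.36 with CP25 and 0.37 with vehicle. On that scale LIN28B came to 132% with CP25 and 125% with vehicle, HMGA1 to 130% with CP25 and 129% with vehicle, and IGF2BP2 to 125% in both.

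IGF2BP1 was the one gene of the 6 with every 2 h library below every 0 h library, at 85.9 ± 7.50% of its 0 h mean with CP25 and 83.1 ± 8.46% with vehicle, but at 110% with CP25 and 108% with vehicle when each library was divided by its median. A position below the 0 h libraries was shared by 44.0% of genes with CP25 and 46.0% with vehicle. Divided by the percent of the median gene, which came from FPKM + 1, the percent of IGF2BP1 was 96.0% with CP25 and 93.9% with vehicle. Divided in the same way, HMGA2 came to 138% with CP25 and 136% with vehicle, and IGF2BP3 to 137% with CP25 and 133% with vehicle. With FPKM + 1 for both, the log2 ratio minus the median was -0.05 with CP25 and -0.09 with vehicle for IGF2BP1. It was 0.46 with CP25 and 0.44 with vehicle for HMGA2, and 0.45 with CP25 and 0.41 with vehicle for IGF2BP3.

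**Figure D4:**
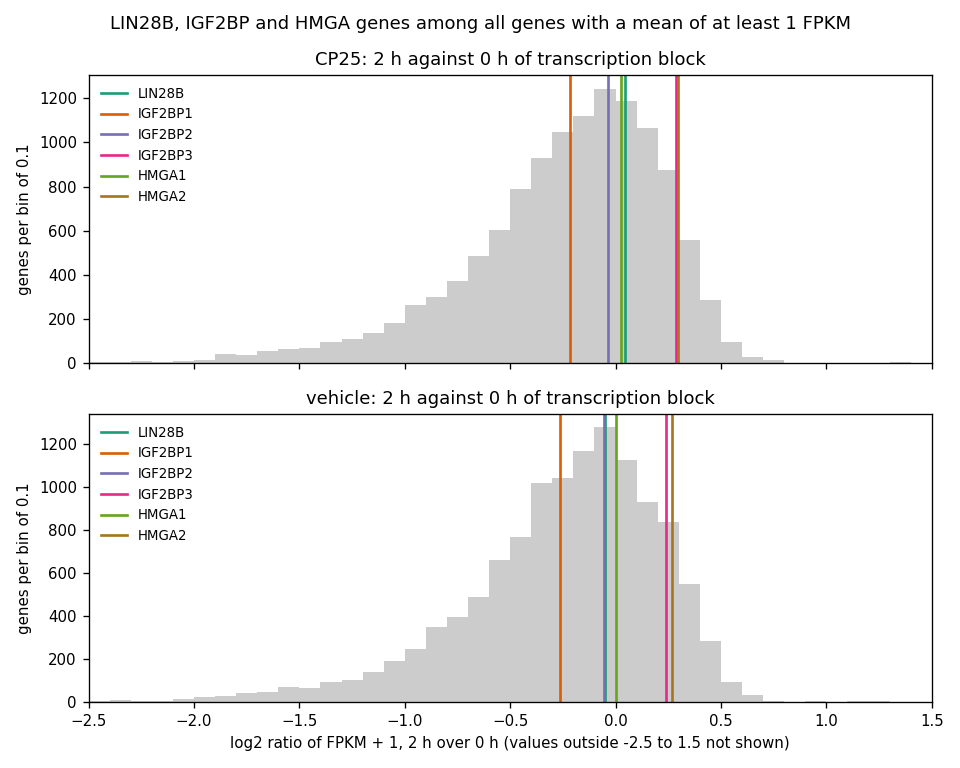
Histograms of the log2 ratio of FPKM + 1, 2 h over 0 h, for 12183 genes with CP25 (top) and vehicle (bottom); the y axis counts genes per bin and coloured lines mark the 6 genes. IGF2BP1 lies near the middle of the distribution, LIN28B, IGF2BP2 and HMGA1 near 0, and IGF2BP3 and HMGA2 toward the right edge.

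The ratio of 2 genes within a library does not depend on the library's scale. IGF2BP1 was the lowest of these genes in percent of 0 h, and IGF2BP3 was near the highest. Their ratio therefore restates that contrast from the same values and is not separate support for it. IGF2BP1 was 1.28, 1.62 and 1.41 times IGF2BP3 with CP25 at 2 h, against 2.10, 1.91 and 2.13 times with CP25 at 0 h. With vehicle it was 1.32, 1.58 and 1.57 times at 2 h, against 2.21, 1.94 and 2.23 times at 0 h. No 2 h library reached the lowest 0 h library in either treatment. How often other pairs of genes separate in this way was not counted. Of the summed FPKM of the 3 IGF2BP genes, IGF2BP1 made up 44.7 ± 3.07% with CP25 and 45.1 ± 2.65% with vehicle at 2 h, and 50.9 ± 0.764% with CP25 and 51.5 ± 1.23% with vehicle at 0 h (SD, n = 3 each). The share of IGF2BP3 was 31.2 ± 1.62% with CP25 and 30.3 ± 1.40% with vehicle at 2 h, and 24.9 ± 1.34% with CP25 and 24.3 ± 1.48% with vehicle at 0 h. IGF2BP2 held between 24.1% and 24.6% in all 4 groups. Within the HMGA genes, HMGA1 was 2.90 ± 0.219 times HMGA2 with CP25 and 3.0 ± 0.41 times with vehicle at 2 h, and 3.51 ± 0.191 times with CP25 and 3.60 ± 0.263 times with vehicle at 0 h, and in vehicle the libraries of the times overlapped.

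The number of let-7 matches did not follow the order of the 6 genes by their 2 h level as a percent of 0 h. HMGA2, with 7 matches, and IGF2BP3, with 1, stood highest, and IGF2BP1, with 5, stood lowest. Over the 10757 genes, the median log2 ratio was -0.25 with CP25 and -0.35 with vehicle for the 77 genes with 3 or more matches, and -0.16 with CP25 and -0.17 with vehicle for the 8969 genes with none. The 77 genes include LIN28B, IGF2BP1 and HMGA2. Below a log2 ratio of -1 lay 3.90% of the 77 with CP25 and 9.09% with vehicle. Of the genes with none, 7.29% with CP25 and 7.14% with vehicle lay there, so with CP25 this share went the other way from the median. The 3′ UTRs of these sets also differed in length, with medians of 7024 nucleotides for 3 or more matches and 956 nucleotides for none. The part of length in the differences of log2 ratio was not tested.

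The likeness of profiles was measured as the root mean square difference of log2(FPKM + 1), each gene centred on its mean, over the 12 libraries and among 11386 genes. HMGA2 was most like PFDN6, HADHA and PRPS2, and IGF2BP3 was most like RPRD1A, ADD3 and ACADSB. These 2 members of different families were near neighbours: IGF2BP3 was the 13th gene from HMGA2, and HMGA2 the 12th from IGF2BP3, at a difference of 0.06. LIN28B was most like EIF2B2, APEX1 and GINS1, HMGA1 like POLD2, TUBB4A and RPL8, IGF2BP1 like SYMPK, TRAF3 and DHX16, and IGF2BP2 like POLR1D, VIPAS39 and PGRMC2. Within the IGF2BP family IGF2BP1 and IGF2BP3 were far apart, at 0.27, with IGF2BP3 the 8036th gene from IGF2BP1.

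Around the 6 genes, lists of related genes were read in the same fits, and limma called none of their genes in any comparison. The machinery that makes and uses let-7 had 18 of 19 genes at a mean of at least 1 FPKM, with LIN28A the exception. Their median log2 change with CP25 was 0.02 at 2 h and -0.06 at 0 h, against 0.01 at 2 h and -0.0036 at 0 h over all genes. DICER1, which cuts the let-7 precursor and is itself a let-7 target, averaged 20.2 ± 3.32 FPKM with CP25 and 19.6 ± 3.72 FPKM with vehicle at 2 h, and 21.5 ± 1.68 FPKM with CP25 and 23.5 ± 1.85 FPKM with vehicle at 0 h (SD, n = 3 each). KHSRP, which binds let-7 precursors and aids their processing, was the most abundant, at 164 to 220 FPKM per library. In each list the genes highest and lowest at 2 h were taken by the mean of their log2 ratios of FPKM + 1, 2 h over 0 h, in both treatments. PRKRA, a Dicer partner, had the highest mean here and stood at 113% of its 0 h level in both treatments. TNRC6C, a partner of Argonaute, had the lowest mean and stood at 39.3% with CP25 and 40.0% with vehicle, while the less abundant TRIM71, of the same list, was lower in percent and DGCR8 was lower in log2 ratio with vehicle. The 12 let-7 and miR-98 precursor rows were listed at 0 in every library, so the microRNAs themselves were not measured. WDR82, whose intron holds let-7g, was at 71.3% with CP25 and 76.2% with vehicle, and HUWE1, whose intron holds let-7f-2 and miR-98, at 98.4% with CP25 and 90.2% with vehicle. Weaker host and companion transcripts went both ways. MIRLET7DHG averaged 0.242 FPKM with CP25 and 0.258 with vehicle at 2 h, against 1.28 with CP25 and 1.85 with vehicle at 0 h. Its 0 h libraries ran from 0.630 to 2.25 FPKM with CP25 and from 1.17 to 2.83 FPKM with vehicle. Like MIRLET7DHG, MIRLET7BHG and LINC00478 averaged below 1 FPKM over the 12 libraries. MIRLET7BHG stood at 26.5% with CP25 and 11.2% with vehicle, and LINC00478 at 134% with CP25 and 130% with vehicle.

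Of 27 other mRNAs reported as let-7 targets, 24 reached a mean of 1 FPKM, with a median log2 ratio, 2 h over 0 h, of -0.35 in both treatments, against -0.16 with CP25 and -0.18 with vehicle over all genes and 0.03 with CP25 and -0.02 with vehicle over the 6. RRM2, a subunit of ribonucleotide reductase, was the most abundant and stood at 111% with CP25 and 115% with vehicle, and NRAS, a small GTPase, had the highest mean log2 ratio and stood at 119% in both. TRIM71, a ubiquitin ligase and RNA-binding protein of early embryos that carried 8 matches, was lower in level than the 6 genes, with 0.474 ± 0.0751 FPKM with CP25 and 0.573 ± 0.129 FPKM with vehicle at 2 h, and 1.66 ± 0.169 FPKM with CP25 and 1.58 ± 0.129 FPKM with vehicle at 0 h (SD, n = 3 each). It stood at 28.6% with CP25 and 36.2% with vehicle.

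Most of the other oncofetal and embryonic genes listed were not expressed here, with 6 of 16 at a mean of at least 1 FPKM. MDK, a secreted growth factor, was the most abundant of them and stood at 98.3% with CP25 and 101% with vehicle. PLAGL1, an imprinted zinc finger factor, had the highest mean log2 ratio and stood at 109% with CP25 and 96.8% with vehicle, below MDK with vehicle. SOX2, a stem cell transcription factor, stood lowest, at 18.8% with CP25 and 16.8% with vehicle. IGF2, the growth factor whose mRNA gave the IGF2BP family its name, was at 0.247 to 0.644 FPKM per library, so the family's namesake target was barely present.

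Of 11 mRNAs reported to be bound by IGF2BPs, 8 were expressed, with a median log2 ratio of -0.18 with CP25 and -0.09 with vehicle. ACTB, the mRNA on which IGF2BP1 was described as a zipcode-binding protein, stood at 96.8% with CP25 and 98.8% with vehicle. MYC stood lowest, and LDHA, a glycolytic enzyme, highest, at 167% with CP25 and 170% with vehicle. The 8 listed partners in IGF2BP-containing particles were all expressed and all stood above 0, with medians of 0.31 with CP25 and 0.23 with vehicle, while 4153 of 12183 genes stood above 0 with CP25 and 3904 with vehicle. PABPC1, the poly(A)-binding protein, stood at 139% with CP25 and 129% with vehicle, YBX1, a cold-shock domain protein and the most abundant, at 130% with CP25 and 120% with vehicle, and ELAVL1, which binds AU-rich elements and had the lowest mean log2 ratio, at 106% with CP25 and 105% with vehicle.

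Among 12 other high mobility group genes, 9 stood above 0 in each treatment, with medians of 0.23 with CP25 and 0.29 with vehicle. HMGN2, a nucleosome-binding protein, was the most abundant and stood at 108% with CP25 and 119% with vehicle. HMGN5 had the highest mean log2 ratio and stood at 135% with CP25 and 148% with vehicle, while HMGN4, at 138%, and HMGB1, at 136%, stood above it with CP25. HMGXB4, a member of the HMG-box class, stood lowest, at 49.1% with CP25 and 47.9% with vehicle. HMGA2, at 0.30 with CP25 and 0.27 with vehicle, lay close to the median of these genes, and HMGA1, at 0.02 with CP25 and 0.0022 with vehicle, lay below it.

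**Figure D5:**
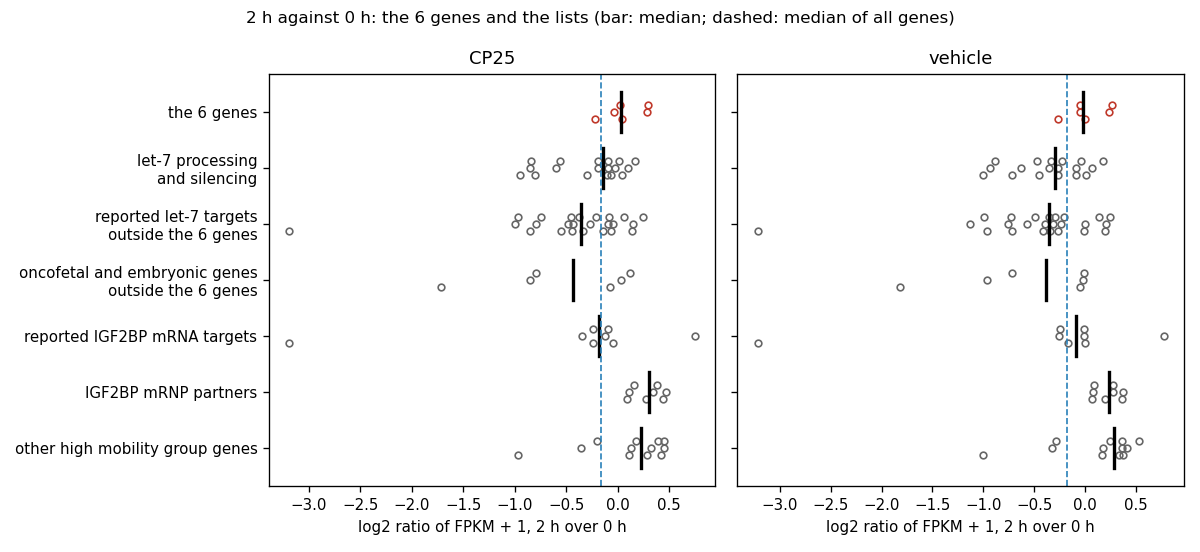
log2 ratio of FPKM + 1, 2 h over 0 h, with CP25 (left) and vehicle (right), for the 6 genes and for the expressed genes of each list; circles are genes, black bars list medians and the dashed line the median of all 12183 genes. The reported let-7 targets have a median of -0.35 in both treatments, and the partners in IGF2BP particles all lie above 0.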

How the data were processed

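The deposited values are FPKM, 1 column per library, in separate tables for 2 h and 0 h. The submitters' processing notes name the hg19 build, Bowtie2 2.2.3, Trimmomatic 0.36 and CASAVA 1.8.2. How FPKM was computed is not given in the sources used here. A table with group means and p-values for each time was deposited too.

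Deposited FPKM were put on the log2(FPKM + 1) scale. Genes averaging at least 1 FPKM were fitted within each time with limma 3.58.1 (R 4.3.3, moderated variances with a trend), and over all 12 libraries for the difference of the effects, with Benjamini-Hochberg adjustment over all tested genes. The fit was tested on simulated data. Depth was estimated from the FPKM step of 1 fragment. At 2 h, libraries of the same number deviated together, with correlations of 0.347, 0.440 and 0.147. Transcripts came from GENCODE 29 and microRNAs from RefSeq.

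The 6 genes and the lists were chosen with earlier results of these data known. In each list the most abundant gene, those with the lowest and highest mean log2 ratio of 2 h over 0 h, and LIN28A, TRIM71, DICER1, MYC and IGF2 were named. RPSAP52, HMGA1P7, SNORD76, DGCR8, HMGN4, HMGB1, MIRLET7BHG, MIRLET7DHG, LINC00478, CDH1 and LHX1 were added after values were seen.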

Additional observations from a re-analysis of the deposited data

How the results depend on the processing

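For the 6 genes, 234 log2 changes were recomputed over all alternatives (pseudocount, filter, scaling, replicate block, each library left out), and 0 passed the threshold, the lowest limma adjusted p being 0.720. Of these, 34 changed sign. With libraries centred on their median, LIN28B at 0 h came to 0.012 and the IGF2BP2 difference of effects to -0.00020, and with quantile normalization HMGA1 at 0 h came to -0.00061. With each library left out in turn, the log2 changes at 2 h ran from -0.064 to 0.058 for IGF2BP1, -0.075 to 0.053 for IGF2BP2, -0.068 to 0.16 for HMGA1, 0.040 to 0.18 for LIN28B, 0.033 to 0.16 for HMGA2 and 0.017 to 0.092 for IGF2BP3. At 0 h they ran from -0.078 to 0.058 for LIN28B, -0.074 to 0.086 for IGF2BP3, -0.14 to 0.14 for HMGA1, -0.049 to 0.15 for HMGA2, -0.097 to -0.0036 for IGF2BP1 and -0.052 to -0.016 for IGF2BP2. The difference of effects ran from -0.013 to 0.11 for IGF2BP1, -0.043 to 0.085 for IGF2BP2, -0.033 to 0.13 for IGF2BP3, -0.097 to 0.18 for HMGA1, -0.063 to 0.13 for HMGA2 and 0.034 to 0.19 for LIN28B. The cause was not tested. Over all genes, leaving out a library gave 1 to 7 calls at 2 h, 1 to 4 at 0 h and 0 to 3 for the difference, and the authors' deposited p-values, adjusted, gave 0 at 2 h and 0 at 0 h. With the replicate block, 1 gene was called at 2 h, 0 at 0 h and 0 for the difference, with 814, 857 and 1284 at an unadjusted p below 0.05, against 87, 88 and 153 without it. Same-numbered libraries correlated at 0.258, -0.010 and 0.124 at 0 h, so pairing there was not established. Division by the library median moved all 12 percentages of the 0 h level, each gene in both treatments, by more than their error. None of the other recomputed percentages, of 96 in all, moved by more than its error. HMGA1 varied most between libraries, which limits its estimates in the fits without the replicate block.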
